A study of Mus musculus with 2 samples.

Results

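The miR-379 to miR-410 cluster is the distal group of microRNA (miRNA) genes in the imprinted Dlk1-Dio3 domain of the mouse. Its members were taken by position alone, as every miRNA gene on the plus strand of chromosome 12 between 109709060 and 109747960 in the mm10 assembly, from the start of Mir379 to the end of Mir3072. GENCODE M21 places 39 such genes there, and 34 of them have a line in the deposited count files, out of 1973 miRNA genes in all. The other 5, Mir299a, Mir380, Mir376b, Mir376a and Mir409, were not analysed here as genes of their own. The libraries hold small RNA of less than 30 nt from whole kidneys of B6NCrl mouse embryos at 15.5 days of development, pooled over both sexes and described as healthy, with no treatment or altered allele named. They form 1 group of 2 biological replicates, from pools of 78 embryos (replicate 1) and 62 embryos (replicate 2). With 1 group there is no comparison of conditions, so the data give the level of each gene and how far the pools differ.

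MiRNAs are made from hairpins cut out of longer transcripts, and bases 2 to 8 of the mature strand, the seed, pair with target messages. Genes of this cluster are transcribed from the maternal chromosome as part of a long non-coding RNA, and the paternal copy is silent. The cluster is best known from brain, where the transcription factor Mef2 drives it in active neurons, and mice without it have trouble keeping blood glucose up after birth. In kidney, miR-379, miR-382 and miR-377 have been studied in fibrosis and diabetic nephropathy.

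The files hold 7434182 own-strand reads in miRNA genes in replicate 1 and 5863293 in replicate 2, and levels are given as CPM, the gene's reads scaled to a library total of 1000000 of these reads. A sequenced read is a whole mature strand, so counts were not divided by hairpin length, and reads of a hairpin's 5p and 3p strands are summed. The files list 27.1% and 26.6% of all reads on a line for reads with multiple matches, apart from the genes, and how such reads were handled beyond that is not stated. Of a list of nephron, epithelial and Hox-cluster miRNAs taken as kidney markers, 13 of 13 genes reached 1 CPM in both libraries. They summed to 28.5% and 25.8% of counts. Most of that sum came from the Hox-cluster genes Mir10a (167241 and 140739 CPM) and Mir10b (65318 and 57839 CPM). Mir192, Mir194-2 and Mir204 stood far lower, between 68.6 and 234 CPM in a library. The lowest gene of the list was Mir30c-2, at 47.3 and 59.5 CPM. In whole tissue, fewer cells of a type and less RNA per cell cannot be told apart.

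The leading genes carry the following mature strands, from RefSeq on GRCm38.p6, printed 5′ to 3′ with the seed in capitals. They are shown because these 7 hairpins supplied most of the cluster's reads. RefSeq held mature strands for 33 of the 34 members, 61 strands in all. It gave no 3p strand for Mir487b, Mir376c and Mir539 and no 5p strand for Mir485, so strand and seed counts leave those out.
miR-411-5p: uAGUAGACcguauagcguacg
miR-411-3p: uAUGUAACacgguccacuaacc
miR-487b-5p: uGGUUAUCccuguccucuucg
miR-369-5p: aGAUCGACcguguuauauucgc
miR-369-3p: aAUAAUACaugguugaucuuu
miR-379-5p: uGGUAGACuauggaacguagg
miR-379-3p: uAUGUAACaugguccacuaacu
miR-382-5p: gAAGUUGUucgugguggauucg
miR-382-3p: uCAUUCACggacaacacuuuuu
miR-541-5p: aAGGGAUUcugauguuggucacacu
miR-541-3p: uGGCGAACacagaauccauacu
miR-381-5p: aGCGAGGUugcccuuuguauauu
miR-381-3p: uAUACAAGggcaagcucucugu
The 61 strands carry 56 distinct seeds, so most members have a seed that no other member has. The 3p strands of miR-379 and miR-411, the first 2 genes of the cluster, share the seed AUGUAAC. No strand outside the cluster in the RefSeq table has it.

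The cluster held 1.73% of counts in replicate 1 (95% exact binomial interval 1.72 to 1.74) and 2.23% in replicate 2 (2.22 to 2.25), a mean of 1.98% ± 0.355 (SD, n = 2). The intervals cover counting error only, and the gap between the pools was far wider than they are. Of the 34 members, 29 reached 1 CPM in both libraries, against 394 of all 1973 miRNA genes. At 100 CPM the numbers were 15 of 34 and 173 of 1973, and at 1000 CPM they were 6 of 34 and 81 of 1973. Among genes that reached 1 CPM in both libraries, the median of the mean level was 118 CPM in the cluster and 68.8 CPM over all genes.

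Levels differed widely between members, as the plot of levels in each library shows. The 5 highest genes, Mir411, Mir487b, Mir369, Mir379 and Mir382, held 73.2% of the cluster's reads in replicate 1 and 73.5% in replicate 2. In both libraries 3 genes held over 50% of the reads and 9 genes held 90%. From Mir411 down to Mir758, the lowest member above 1 CPM, the mean level fell by a factor of 987.

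**Figure D1:**
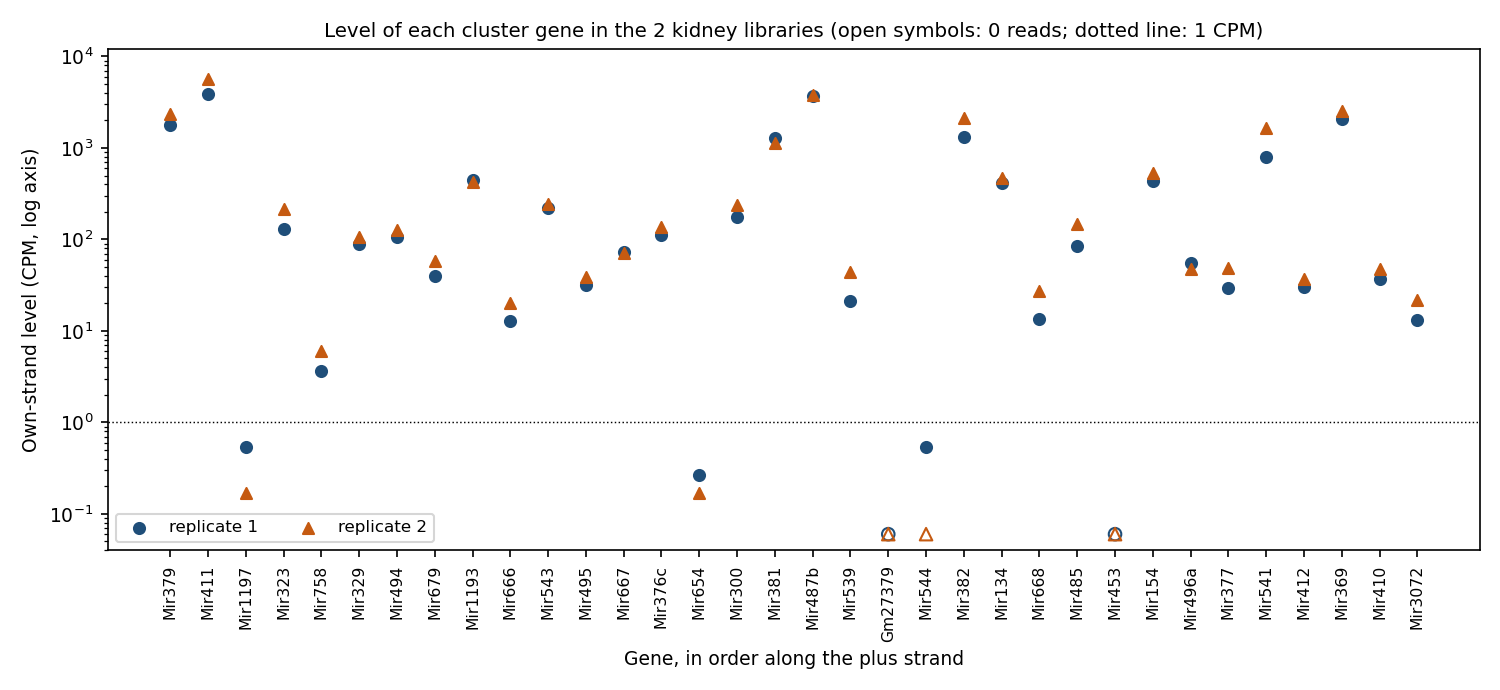
Own-strand level in CPM on a log axis (y) for the 34 cluster genes in chromosomal order (x), with circles for replicate 1 and triangles for replicate 2. Open symbols at the bottom mark a count of 0. The 2 libraries lie close for every gene above 1 CPM, while levels run from above 1000 CPM in both libraries at 6 genes to under 1 CPM at 5 genes.

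Mir411 stood at 3877 CPM in replicate 1 and 5604 CPM in replicate 2, from 28822 and 32858 reads. It was the highest member in both libraries and ranked 33 among all miRNA genes by mean level. Mir487b stood at 3674 and 3750 CPM, below Mir411 in both pools. The ranges of Mir411 and Mir487b did not overlap, nor did those of Mir487b and the next gene.

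Mir369 stood at 2061 and 2562 CPM. Its miRNA is known from work on AU-rich elements of messages in quiescent cells. Mir379, which gives the cluster its name and has been studied in diabetic nephropathy, stood at 1763 and 2372 CPM. Mir382, studied in fibrosis of renal epithelium, stood at 1319 and 2144 CPM. The ranges of these 3 genes overlapped between the pools, although within each library they stood in this same order. How stable that order is was not tested.

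Mir541 stood at 788 CPM in replicate 1 and 1666 CPM in replicate 2. Mir381 went the other way, at 1272 and 1136 CPM. These genes overlapped as well and changed places between the libraries. Every value of Mir381 lay above every value of the next gene, Mir154.

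Below them, Mir154 stood at 437 and 539 CPM, Mir134 at 411 and 466 CPM and Mir1193 at 444 and 425 CPM. MiR-134 is the member best known in neurons, where it limits the size of dendritic spines. The ranges of these 3 genes overlapped. Mir154 stood above Mir134 in both libraries, while Mir1193 was the highest of the 3 in replicate 1 and the lowest in replicate 2. Mir543 followed at 222 and 243 CPM and Mir300 at 176 and 237 CPM. Overlap was judged across the libraries, so genes that overlap can still keep the same order within each. Across the whole order by mean level, 24 of 33 neighbouring pairs overlapped and 9 did not. Of these 9, Mir654 over Mir453 rests on 2 reads and 1 read against 0, which is within what a count of 0 allows.

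The next 17 members, from rank 13 to 29, lay between 3.63 and 217 CPM in a library. Mir323 was the highest of them at 131 and 217 CPM, with Mir376c at 112 and 136 CPM and Mir494 at 107 and 128 CPM below it. Mir485, which acts on synaptic proteins in neurons, stood at 85.4 and 147 CPM. Mir329, also tied to neuronal activity, stood at 89.9 and 108 CPM. Both had less than 1 in 10 of the level of Mir411.

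Mir377, reported to be raised in mesangial cells in diabetes, stood at 29.6 and 48.9 CPM. Of Mir379, Mir382 and Mir377, the 3 members named above for kidney studies, Mir377 was the lowest in both pools. The remaining members of this range include Mir667 at 73.7 and 71.8 CPM and Mir679, 20 bp before Mir1193, at 39.8 and 57.5 CPM. Mir495, at 32.1 and 39.2 CPM, and Mir412, at 30.0 and 37.4 CPM, lay lower still, and Mir3072, the last gene of the span, stood at 13.3 and 21.8 CPM.

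Mir410, whose name marks the far end of the cluster, stood at 37.0 and 47.1 CPM. It lay at rank 21 of 34 by mean level.

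A group of 5 members did not reach 1 CPM. Mir1197 had 4 reads in replicate 1 and 1 read in replicate 2. Mir654 had 2 and 1 reads, and Mir544 had 4 and 0. Mir453 and Gm27379 had 0 reads in both libraries, so levels of at most 0.404 CPM (replicate 1) and 0.512 CPM (replicate 2) remain possible. At this depth these genes were at or near the limit of detection.

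Position in the cluster did not order the levels. The span of 38.901 kb holds the 34 genes at a median spacing of 644 bp. Mir379 and Mir411, side by side at one end, gave 32.5% and 35.7% of the cluster's reads. The 14 genes between Mir411 and Mir381 together gave 8.34% and 7.55%. Mir381 and Mir487b, near the middle, gave 28.5% and 21.9%. Mir299a, Mir380, Mir376b and Mir376a also lie between Mir411 and Mir381 but have no line, so these shares leave them out. Plus-strand reads counted opposite to the minus-strand genes that overlap Mir299a, Mir380 and Mir376a averaged 732, 340 and 1023 CPM. Across the 34 genes, Spearman's rho of the mean level with distance from the start of Mir379 was -0.09, a description of genes that share libraries and a transcript.

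**Figure D2:**
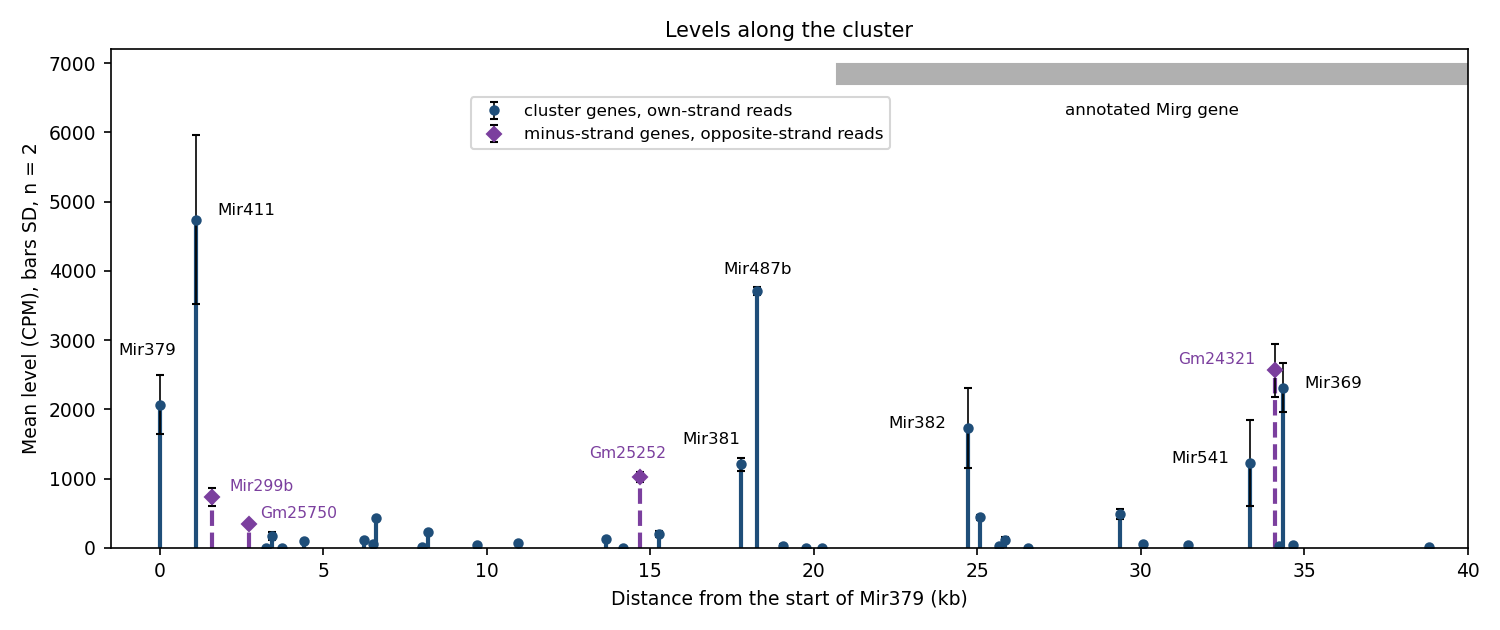
Mean level in CPM (y) against distance from the start of Mir379 in kb (x), with bars for the SD of the 2 libraries. Blue points are the 34 cluster genes by own-strand reads, purple diamonds are 4 minus-strand genes by opposite-strand reads, and the grey bar marks the annotated Mirg gene. High genes stand side by side at Mir379 and Mir411, and at Mir381 and Mir487b. Low genes lie between these groups, for example Mir758 at 4.80 CPM, against 4740.5 CPM at Mir411.

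Neighbours among the genes with a line often differed by more than 10-fold. Of 33 pairs of such genes next to each other, 19 lay within 1000 bp. Of these 19, 8 had more than 3 reads for both genes in each library and differed at least 10-fold in both libraries. Pairs with a gene at 3 reads or fewer in a library were not counted, however far apart. Mir1197 (4 and 1 reads) and Mir323 (976 and 1271 reads), 71 bp apart, were left out in this way. Genes without a line were passed over in forming pairs. The 8 pairs include Mir541 and Mir412, which have Mir409, a gene without a line, between them. Mir412 and Mir369 are separated by 49 bp. Mir369 had 15325 and 15022 reads against 223 and 219 for Mir412, a ratio of 68.7 in replicate 1 and 68.6 in replicate 2.

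Mir410 begins 218 bp after Mir369 and was lower by 55.7 and 54.4 times. Mir323 and Mir758 are 216 bp apart and differed by 36.1 and 36.3 times. Mir487b and Mir539, 714 bp apart, differed by 174 and 84.9 times. The first 3 of these pairs kept nearly the same ratio in both pools. In the last pair the ratio fell, with Mir539 at 21.1 and 44.2 CPM and Mir487b at 3674 and 3750 CPM.

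The annotated host gene Mirg, a long non-coding RNA, runs from 109729764 to 109749460 and covers the distal end. Of the 34 members, 13 lie inside it, 9 over an exon and 4 in an intron. The other 21 lie in no other gene annotated on the plus strand. Members inside Mirg gave 30.5% of the cluster's reads in replicate 1 and 34.7% in replicate 2. Mir382 (109733771 to 109733846) and Mir369 (109743418 to 109743496) overlap Mirg exons, and Mir541 (109742409 to 109742498) lies in a Mirg intron. Mir411 (109710175 to 109710256) and Mir487b (109727333 to 109727414) lie before it.

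Members with the same seed had unequal levels. The genes below are shown because each pair shares bases 2 to 8 and so could pair with the same seed sites.
miR-379-5p: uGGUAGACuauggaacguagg
miR-1193-5p: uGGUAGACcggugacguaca
miR-758-5p: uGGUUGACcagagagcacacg
miR-1197-5p: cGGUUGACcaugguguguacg
miR-494-5p: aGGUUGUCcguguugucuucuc
miR-410-5p: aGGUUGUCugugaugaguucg
miR-496a-5p: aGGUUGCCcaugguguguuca
miR-453: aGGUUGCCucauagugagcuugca
Together with the 3p strands of miR-379 and miR-411, 5 seeds were held by more than 1 member, and these involve 9 genes.

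Mir379 had 3.97 times the reads of Mir1193 in replicate 1, and 5.58 times in the other pool. Mir411 exceeded Mir379, with which it shares the 3p seed, by 2.20 and 2.36 times. Mir494 stood at 107 and 128 CPM and exceeded Mir410 by 2.91 and 2.71 times. In the pair of Mir758 and Mir1197 the levels were low, with 27 and 35 reads for Mir758. Mir496a stood at 54.6 and 47.2 CPM, while its partner Mir453 had no reads. In each of the 5 pairs the same gene was higher in both libraries. Since both strands of a hairpin are summed, these are levels of hairpin genes and not of the strands that share the seed.

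Some hairpins of the cluster resemble each other. Over 561 pairs of members the median identity in a global alignment was 50%, 86 pairs reached 60% and 9 pairs reached 70%. Mir411 and Mir758 were the most alike members at 73.8%, and Mir300 and Mir381 followed at 73.75%. The 6-base word GUUGCC stood on the mature strands of 7 of 33 members. That is 11.5% of the cluster's 61 strands, against 0.655% of all 1679 mouse strands in the table. The 1679 strands include the cluster's own, and of the 11 with the word 7 are in the cluster. GUUGCC was the word found in the most members, looked for on the given strand only. It partly overlaps the second most frequent word, AGGUUG. Median GC content was 45.3% in the members and 51.0% over 1894 miRNA genes. Neither GC content, with a rho of -0.31, nor predicted folding energy, with a rho of 0.095, closely followed the level across the 34 genes.

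Pairs with similar hairpins could differ widely in level. The hairpins of Mir411 and Mir758 are printed with their longest common stretch, 21 nt, in capitals, as DNA from GENCODE M21 (plus strand, mm10).
Mir411: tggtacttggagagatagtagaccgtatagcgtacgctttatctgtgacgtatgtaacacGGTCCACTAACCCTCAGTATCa
Mir758: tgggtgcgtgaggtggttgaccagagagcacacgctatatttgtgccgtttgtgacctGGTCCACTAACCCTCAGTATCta
Mir411 had 1067 times the reads of Mir758 in replicate 1 and 939 times in replicate 2. MiR-758 is known for lowering the cholesterol transporter ABCA1. Mir381 exceeded its near copy Mir300 by 7.22 and 4.80 times. The hairpins of Mir543 and Mir495 share a stretch of 12 nt, and Mir543 exceeded Mir495 by 6.92 and 6.19 times.

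Since the files list reads with multiple matches apart from the genes, shared sequence was looked for. A stretch of 20 nt in common with another miRNA gene occurs in 4 members, Mir411, Mir758, Mir376c and Mir487b, against 48.7% of all matched genes. None of the 61 mature strands occurs whole in any other of 2202 miRNA hairpins of M21, so a full-length read of these strands matches 1 annotated hairpin. Matches elsewhere in the genome were not looked at. Without those 4 members the rest of the cluster held 1.13% of counts.

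The miR-376 group, whose transcripts are edited from adenosine to inosine in brain, is seen in part. Mir376c, the only one with a line of its own, stood at 112 and 136 CPM. Its 5p strand and that of miR-376b are shown because they share a seed that no other strand in the table has.
miR-376c-5p: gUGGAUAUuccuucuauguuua
miR-376b-5p: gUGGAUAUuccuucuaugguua
Their hairpins share a stretch of 31 nt and are 80.7% identical, the most alike pair that includes a gene without a line.

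Reads also lay on the plus strand over 4 minus-strand miRNA genes of the same span. These are opposite-strand reads of Mir299b, Gm25750, Gm25252 and Gm24321. They summed to 31670 in replicate 1 and 29652 in replicate 2, which is 24.6% and 22.6% of the members' own reads. No member had an opposite-strand read of its own. In M21 the 4 genes overlap Mir299a, Mir380, Mir376a and Mir409 in that order, which are among the plus-strand genes without a line.

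The largest of these, opposite to Gm24321, which overlaps 79 bp of Mir409, was 2290 CPM in replicate 1 and 2837 CPM in replicate 2. By mean it would stand at rank 3 among the members, between Mir487b and Mir369. The reads opposite to Gm25252, which overlaps Mir376a, came to 977 and 1070 CPM. With all 4 added to the cluster and to the library total, the cluster held 2.44% ± 0.408 of counts (SD, n = 2). The counts do not say where in a gene a read lies, so these reads were not assigned to the plus-strand hairpins. The mature strands of miR-409, miR-376a, miR-380 and miR-299a are given because the 4 minus-strand genes overlap their hairpins.
miR-409-5p: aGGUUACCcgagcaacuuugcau
miR-409-3p: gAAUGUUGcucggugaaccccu
miR-376a-5p: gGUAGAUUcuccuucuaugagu
miR-376a-3p: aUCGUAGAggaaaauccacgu
miR-380-5p: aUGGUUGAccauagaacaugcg
miR-380-3p: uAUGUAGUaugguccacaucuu
miR-299a-5p: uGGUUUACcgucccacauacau
miR-299a-3p: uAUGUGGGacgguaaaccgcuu

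Scaled to library totals, 25 of the 29 members tested were higher in replicate 2 than in replicate 1, and 23 were with TMM factors or DESeq2 size factors. For each of the 378 genes in the table whose reads averaged at least 10, the pools were set against each other by an exact binomial test, two-sided, with their totals fixed and Benjamini-Hochberg adjustment over all of these genes. The test compares these libraries and not conditions. Of the 29 members tested, 23 passed at an adjusted p of 0.05 as higher in replicate 2, where 40.2% of all genes tested did. Mir381 alone passed as lower (adjusted p = 6.13e-12 by the exact test, 0.893 times), where 15.6% of all genes did. The other 5, Mir758, Mir1193, Mir495, Mir667 and Mir496a, did not pass.

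Among genes averaging at least 100 reads, 24 of 28 members passed as higher and 1 as lower, against 52.3% and 21.2% of 264 genes. Members and other genes with more reads can pass at smaller differences. The median log2 ratio of CPM + 1 was 0.34 over the 29 members, with quartiles at 0.25 and 0.67, and 0.14 over all genes tested. Above the all-gene median lay 23 of 29 members, while the ratios of all genes spread with an SD of 0.50 on the log2 scale.

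The split depends on scaling. TMM factors lowered every log2 ratio by 0.13, and DESeq2 size factors by 0.16. With TMM, 15 members passed as higher and 4 as lower, where 28.8% and 29.4% of all genes were. With DESeq2 size factors the numbers were again 15 and 4, where 27.2% and 31.7% of all genes were. Mir487b and Mir543 changed direction under both scalings.

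**Figure D3:**
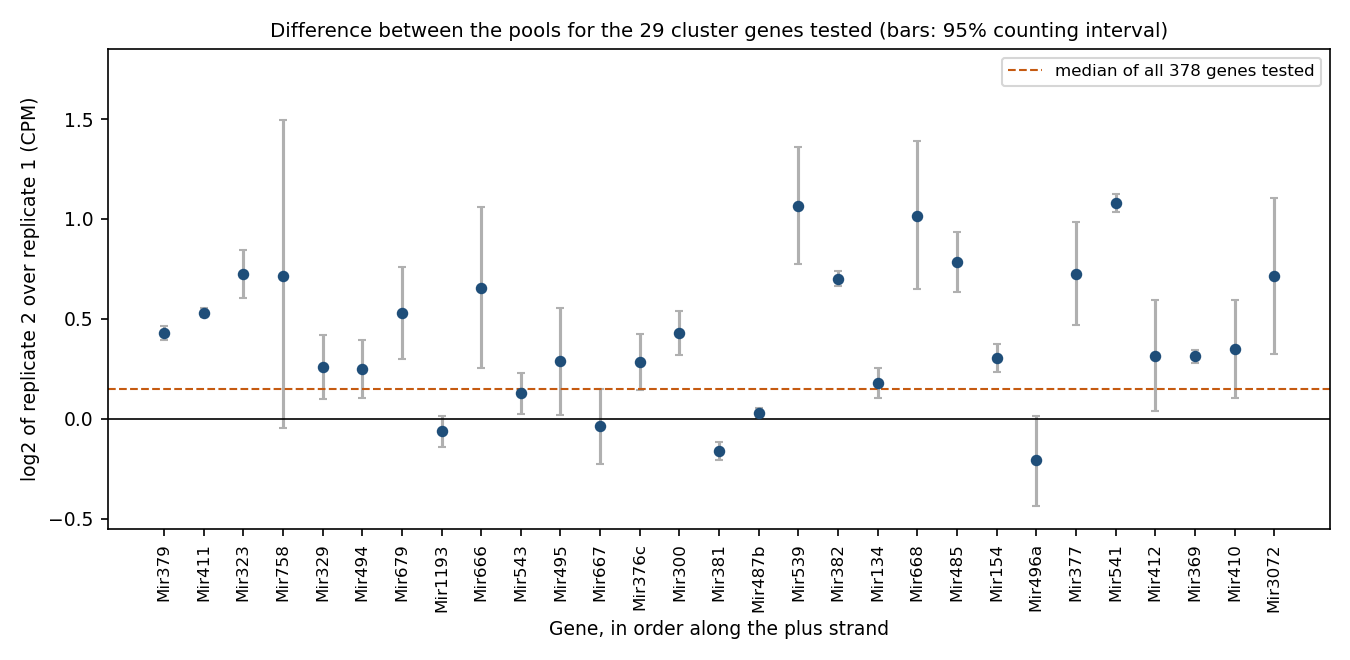
The log2 of replicate 2 over replicate 1 in CPM (y) for the 29 members tested, in chromosomal order (x), with bars for the 95% exact binomial interval of counting error. The dashed line is the median of all 378 genes tested, 0.15 on this scale without a pseudocount. Mir539, Mir668 and Mir541 stand near 1, and 4 genes lie below 0 at library-total scaling.

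Differences of 2-fold or more were few. With a fold of at least 1.5 added to the test, 9 members passed as higher and 0 as lower, where 14.3% and 1.59% of all genes did. At 2-fold, 3 members passed as higher and 0 as lower, where 5.82% and 0.265% of all genes did. The 3 were Mir541, at 2.11 times (95% exact interval 2.05 to 2.18), Mir539 at 2.09 times (1.71 to 2.57) and Mir668 at 2.02 times (1.57 to 2.62). Mir541 rests on 5861 and 9769 reads, while Mir539 rests on 157 and 259 reads and Mir668 on 101 and 161. These 3 folds are at library totals, and each lies above 2-fold by less than the shift that TMM or DESeq2 size factors bring.

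At the other end stood Mir496a at 0.865 times (0.740 to 1.01), Mir381 at 0.893 times (0.866 to 0.922) and Mir1193 at 0.957 times (0.908 to 1.01). Of these only Mir381 passed the test. Members of the cluster thus did not all shift by the same factor. Mir381 and Mir487b, neighbours 436 bp apart, stood at 0.893 and 1.02 times, and Mir382, the next high gene, at 1.63 times (1.58 to 1.67).

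By position, the 12 tested members inside Mirg had a median log2 ratio of 0.51, and the 17 before it 0.28. Of the former 11 passed as higher, and of the latter 12, where 40.2% of all genes did. The difference between these groups was not tested. Across the 29 members, rho of the log2 ratio with distance from Mir379 was 0.14 and with mean level -0.26.

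The proximal miRNA genes of the same domain, around Meg3, Rtl1 and Rian, were mostly higher in replicate 2 as well at library totals, although Mir434 and Mir341, both at a log2 ratio of 0.09, lay within the shift that either scaling brings. Of 18 measured genes, 15 reached 1 CPM in both libraries, and they held 0.659% and 0.885% of counts. The 3 highest by mean level were Mir127, which lies antisense to Rtl1, at 2614 and 3866 CPM, Mir431 at 1619 and 2068 CPM, and Mir337 at 504 and 647 CPM. Of 14 tested, 12 passed as higher in replicate 2 and 0 as lower, where 40.2% and 15.6% of all genes tested did. Their median log2 ratio was 0.38, against 0.14 over all genes. The sum of the proximal list was 1.34 times as high in replicate 2 and that of the cluster 1.29 times. Whether these lists differ was not tested, and they come from the same 2 libraries.

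**Figure D4:**
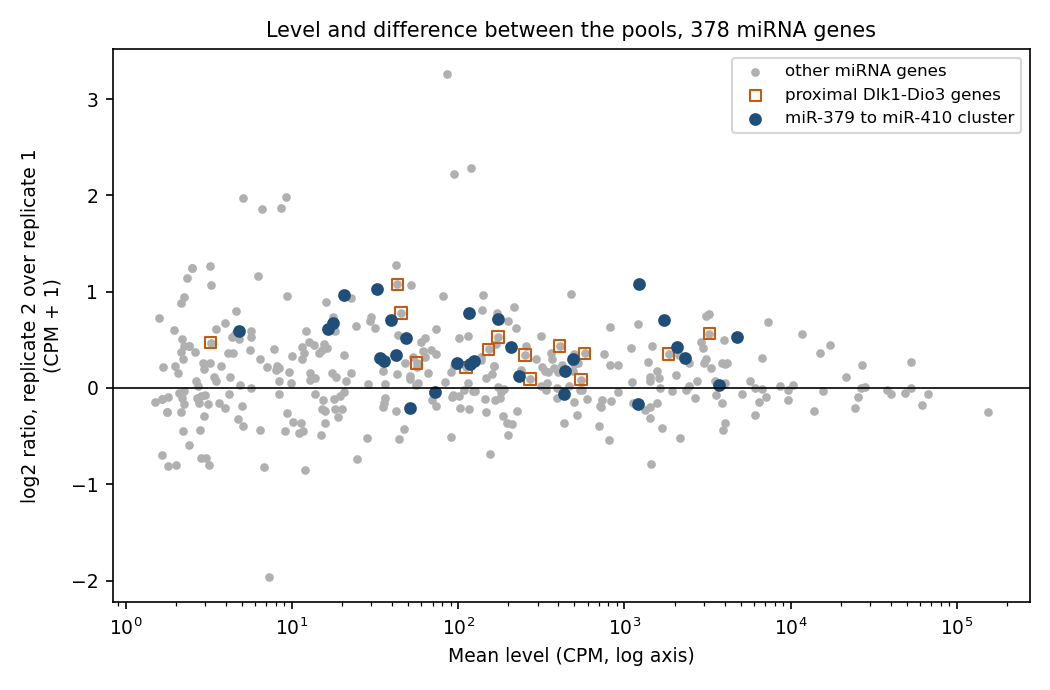
Log2 ratio of replicate 2 over replicate 1 in CPM + 1 (y) against mean level in CPM on a log axis (x) for the 378 miRNA genes tested. Filled blue points are the 29 cluster genes, open squares the 14 proximal Dlk1-Dio3 genes and grey points the others. Cluster and proximal genes lie mostly above 0, within the spread of the other genes.

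Scaled to library totals, marker lists of kidney and of other cell types also moved between the pools, and their part in the cluster's values was not tested. Over all genes tested, 40.2% passed as higher in replicate 2 and 15.6% as lower. Of the 13 kidney genes, 5 passed as higher and 7 as lower, and the median log2 ratio was -0.19. Among them Mir192 stood at 0.618 times and Mir204 at 0.714 times, while Mir30a stood at 1.47 times.

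Of the neural list, 9 of 13 measured genes reached 1 CPM in both libraries, with a sum of 670 CPM in the first pool and 853 CPM in the second. Of the 9 tested, 4 passed as higher and 0 as lower, a share near that of all genes. Its highest genes were Mir132 at 374 and 419 CPM, Mir137 at 126 and 218 CPM and Mir128-1 at 64.8 and 83.1 CPM. Mir128-2, Mir212 and Mir9-3 had ratios of 0.763, 0.871 and 0.400 and did not pass. The defining neuronal genes Mir124a-1, Mir124a-2 and Mir124a-3, as well as Mir9-2, are listed with 0 reads. Reads matching more than 1 copy may be on the separate line, so the sum may not hold the whole list.

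The endocrine list summed to 1343 and 1975 CPM, with 4 of 4 genes passing as higher. Mir122 of liver stood at 319 and 628 CPM and passed as higher. The erythroid list stood at 352 and 488 CPM, with 2 of 3 genes passing as higher. The muscle list summed to 1026 and 700.1 CPM, and 3 of its 5 tested genes passed as lower. Most of that sum came from Mir206, at 959 and 659 CPM. Mir1a-1, Mir133a-1 and Mir133a-2 are listed with 0 reads, and here too reads matching more than 1 copy may be on the separate line. For the same test, 40.2% of all genes passed as higher and 15.6% as lower.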

How the data were processed

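Small RNA of embryonic kidney was sequenced in 2 libraries. The authors deposited raw read counts for each miRNA gene in 3 forms: ignoring strand, on the same strand as the gene, and on the other strand. A note deposited beside the counts names mm10 and GENCODE M4. For the aligner and counter, the sources used here name none. Lines for reads outside genes were kept out of totals. Genes were matched to GENCODE M21 by identifier without its version (1894 of 1973), and 12 of the 34 members have another version there, so their bounds may differ slightly.

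Own-strand counts gave CPM, the mean and SD (n = 2) and exact (Clopper-Pearson) 95% intervals. A count of 0 allows up to 3 counts. Ratios used CPM + 1. The binomial test was checked on counts simulated with counting error only, where calls also needed a 2-fold difference. That check does not cover spread between pools or calls made without a fold rule. edgeR 4.0.16 gave TMM factors and DESeq2 1.42.0 size factors, since 1 group leaves no contrast to fit. Python 3.11.15, scipy 1.17.1, Biopython 1.88 and RNAfold 2.7.2 did the rest. The labels give both pools the same donor entry and do not say whether they shared litters, so p-values measure only the spread of these reads. Members, gene lists and rules were chosen with earlier results of these data known. By rule any member could be named, with full values for the 12 highest, those under 1 CPM, the 3 highest and 3 lowest ratios with a mean count of at least 100, and shared seeds.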

Additional observations from a re-analysis of the deposited data

Results flagged for a closer look

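Reads on the strand opposite to 4 minus-strand genes lie outside the own-strand counts and exceeded what a count of 0 allows, with no control sample to compare. By mean over the 2 libraries they came to 2563.5 CPM for Gm24321, 1023 CPM for Gm25252, 732 CPM for Mir299b and 340 CPM for Gm25750. On their own strand, Mir299b had 14 and 15 reads and the other 3 had 0. Opposite-strand reads of Gm25750 fell from 2648 in replicate 1 to 1896 in replicate 2, or 356 and 323 CPM, while those of Mir299b were 637 and 828 CPM.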

How the results depend on the processing

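The cluster's share was 2.34% with the most abundant gene left out of the total, 1.13% without the 4 members that share 20 nt with another gene, 2.44% with opposite-strand reads added, and 1.73% to 2.23% in single libraries. The 5 highest members held 75.7% without those sharing sequence, and 73.2% to 73.5% in single libraries. The number of members at 1 CPM was 29 in either library alone, and 28 reached 10 CPM in both. The median log2 ratio was 0.21 with TMM and 0.18 with DESeq2 size factors. Members called higher fell from 23 to 15 with either scaling. At library totals they fell to 9 with a fold of at least 1.5 and to 3 with 2-fold. Those called lower went from 1 to 4 with either scaling and to 0 with either fold, so 9 and 3 were called in all. Of the 40 alternatives to these summary values, 16 moved by more than the limit set for their result. Only the median log2 ratio could change direction, since the other summary values are shares or numbers of genes, and it did not in any alternative. No paired analysis was possible because there is 1 group. Depth limits the members under 1 CPM, which were not tested.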
